A study of Mus musculus with 3 samples.

Results

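Among 14777 single cells sorted from mouse embryos for a lineage reporter of early mesoderm, 345 cells (2.33%) met a rule for blood precursors with little globin message. A cell met it when transcripts of the embryonic globins Hbb-y, Hbb-bh1 and Hba-x and of the alpha globins Hba-a1 and Hba-a2 made up under 10% of its unique molecular identifiers (UMIs, 1 per counted RNA molecule). It also had to hold at least 1 UMI of Gata1 and at least 3 UMIs of Runx1, Fermt3 and Adgrg1 summed. The cells were thus selected on the measured UMIs of 5 globins and 4 marker genes, so their levels are descriptions below and support nothing.

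GATA1 is the transcription factor that drives both red cell and megakaryocyte genes, and RUNX1 is required for definitive blood and for platelet formation. Fermt3 encodes kindlin-3, which activates integrins in blood cells, and Adgrg1 encodes an adhesion receptor found on blood progenitors and platelets. In the mouse yolk sac, a first wave of primitive red cells and megakaryocytes forms at about the time the heart tube does, and red cell precursors then fill with embryonic globin while dividing in the circulation. Megakaryocytes instead load granules with chemokines and assemble the platelet receptors.

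All embryos carried Mesp1-Cre, which recombines in nascent mesoderm, and the Ai9 red reporter, on a C57BL/6 background. Controls were Wls fl/+ and so had 1 floxed copy of Wls, the transporter that Wnt ligands need for secretion. Mutants were Wls fl/fl. Dissociated cells were tagged with MULTI-seq barcodes, sorted for the reporter and captured with 10x Chromium v3 in 3 runs, so cells outside the Mesp1 lineage, or without recombination at the reporter, were not sorted for. The replicate was the barcode sample, and whether a barcode held 1 embryo or several is not stated. The 22 barcode samples were E8.0 (3 control, 3 mutant, all in run 1), E8.5 (2 control, 1 mutant, run 2), E9.5 (6 control, 6 mutant, runs 1, 2 and 3) and 1 control sample labelled E7.5. The cells that met the rule had a median of 32804 UMIs (5310 to 84730) and 5556 genes, 6 of them were called doublets, and of the 23 cell barcodes found in more than 1 run 0 were among them.

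The cells were concentrated at E8.0, which held 286 of them (82.9%). At E8.0 they made up 24.8% (91 of 367 cells), 11.7% (72 of 614) and 7.75% (44 of 568) of the control samples Bar24, Bar26 and Bar29. In the mutant samples Bar25, Bar27 and Bar28 they made up 10.7% (42 of 392), 4.71% (33 of 701) and 0.714% (4 of 560). The highest share was in a control (exact Clopper-Pearson 95% interval 20.5 to 29.5%) and the lowest in a mutant (0.195 to 1.82%), and the groups overlapped. Cells with 10% or more globin, which fail the rule, numbered 0, 109 and 0 in those controls and 5, 43 and 11 in those mutants. The share thus depends both on how many blood cells a sample held and on how many had passed the globin limit. The part of each was not tested. At E8.5 all 13 cells came from the control sample Bar3 (0.518% of 2508 cells), and the mutant sample Bar1 had 0 of 487, which allows a share of up to 0.616% by a limit of 3 counts (the exact 95% interval reaches 0.755%); the control Bar2 had 0 of 34. At E9.5 there were 46 cells, at 0.377%, 0.233% and 0.654% in the controls Bar22, Bar23 and Bar9 and at 1.27%, 0.729% and 1.37% in the mutants Bar19, Bar20 and Bar21, each from 4 to 11 cells (intervals from 0.0634 to 0.595% in Bar23 to 0.659 to 2.5% in Bar21). The other 6 samples of E9.5, with 6 to 608 cells each, held none, and neither did the E7.5 sample of 28 cells.

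**Figure D1:**
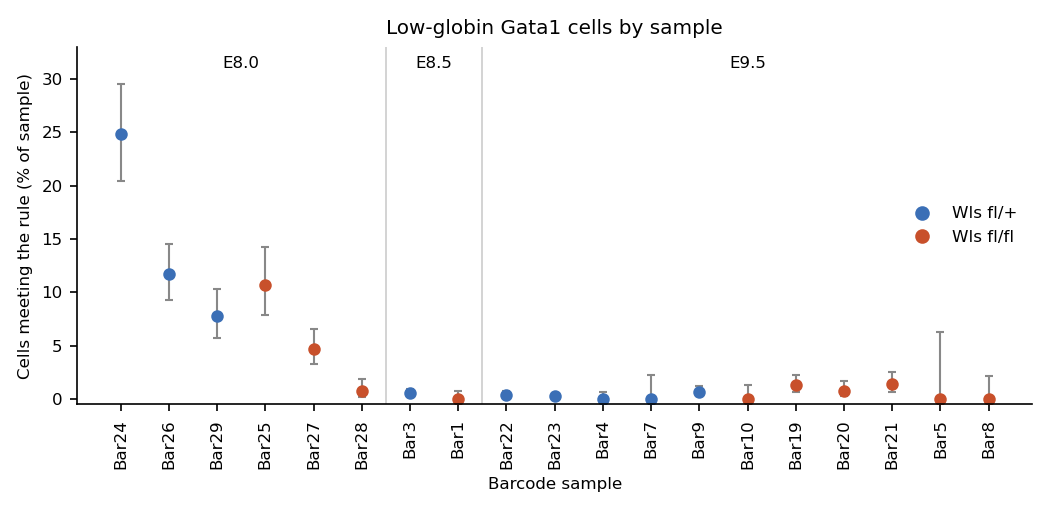
Share of cells meeting the rule (percent of the cells of a sample, vertical axis) in each barcode sample with at least 50 cells (horizontal axis), by stage, with Wls fl/+ controls in blue and Wls fl/fl mutants in red; bars are exact binomial 95% intervals, which cover counting error only. E8.0 samples range from 0.714% to 24.8%, and no E8.5 or E9.5 sample exceeds 1.37%.

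The cells differed by stage in red cell and megakaryocyte genes and shared some factors of both lineages, so the label of early blood progenitors held for them only in part. The 286 cells of E8.0 were mostly erythroid in type: 267 held a UMI of Klf1, the master factor of red cell genes. In the 2748 other E8.0 cells under 10% globin, taken as the background of free RNA, 6.33% held a UMI of it, at a median depth of 25924 UMIs against 34442 in the cells meeting the rule. These other cells all held under 10 Pf4 UMIs and may include blood cells that failed a limit of the rule. Pf4, a chemokine stored in megakaryocyte granules, was at 0 UMIs in 242 of the 286 and reached 10 UMIs in 1. The 59 cells of E8.5 and E9.5 were mostly megakaryocyte in type: 50 of them held 10 or more Pf4 UMIs, with a median over all cells of 367 Pf4 UMIs at E8.5 and 251.5 at E9.5. A Pf4 UMI was also present in 2.46% of other cells at E8.5 and 4.68% at E9.5, where median depths were 22103 and 18416 UMIs against 19461 and 21294.5. Gfi1b, a repressor that both lineages need, had a UMI in 77.3% of the cells at E8.0, 100% at E8.5 and 80.4% at E9.5, against 2.37%, 0.238% and 1.02% of other cells. In cells with 10% or more globin the shares with Gfi1b were 73.2%, 68.2% and 51.5%. The median globin share was 0.431% at E8.5 and 0.407% at E9.5, against 5.18% at E8.0.

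For each of the following markers of immature progenitors, most of these cells held no UMI, which does not show that the gene was off. Kit, the stem cell factor receptor, had a UMI in 93 of the 286 cells at E8.0 (32.52%, against 18.4% of other cells, some of which may express it), in 0 of 13 at E8.5 and in 3 of 46 at E9.5. Cd34 had a UMI in 33, 1 and 6 of these cells, at E8.0 below the 19.2% of other cells. Gata2, which is high in early progenitors, had a UMI in 38, 0 and 7 cells (13.3% at E8.0 and 15.2% at E9.5, against 8.44% and 3.99% of other cells). Ptprc, the pan-leukocyte antigen CD45, had a UMI in 3, 0 and 3 cells (1.05% at E8.0 and 6.52% at E9.5, against 2.11% and 1.34%). Myb, which definitive progenitors need, had a UMI in 115 of the 286 cells at E8.0 (40.2%, against 5.28% of other cells). It had a UMI in 1 of 13 cells at E8.5 and in 8 of 46 at E9.5 (17.4%, against 4.18% of other cells). The cells are therefore named here by the rule and by their leading genes.

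**Figure D2:**
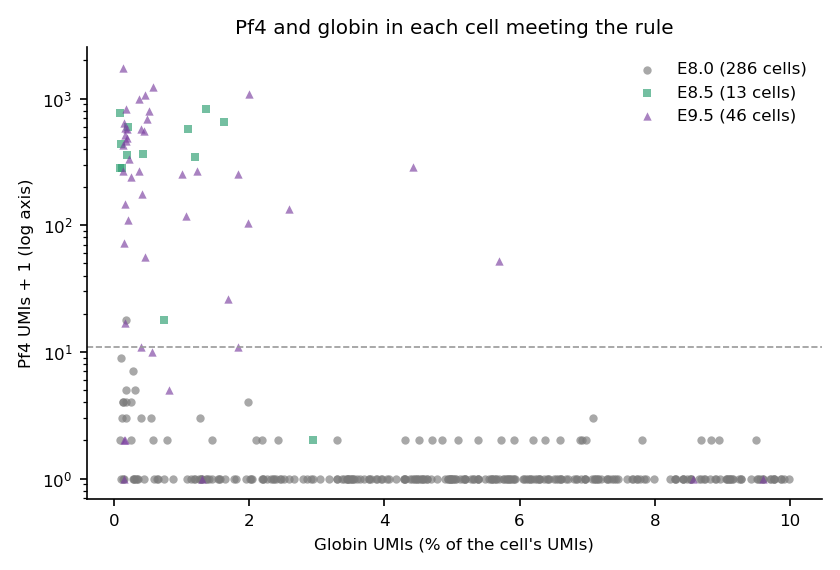
Pf4 UMIs plus 1 (vertical log axis) against the globin share of UMIs (percent, horizontal axis) in each of the 345 cells, by stage; the dashed line marks 10 Pf4 UMIs. Above the line lie 1 cell of E8.0, 12 of the 13 of E8.5 and 38 of the 46 of E9.5, none of them above 5.69% globin.

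The promoters of genes that mark the 2 kinds are shown because the rule required Gata1 in every cell, while the genes beside it differed. The windows cover up to 250 bases before the start of each gene and end sooner for Klf1 and Alas2, so as to stop before the start in GENCODE M21 (sequence from RefSeq, GRCm38.p6, 5′ to 3′ on the gene's strand, which is + for all 5). Capitals mark GATA words, which are the letters GATA after A or T and before A or G, and the ETS word GGAAGT, each on either strand. No base belonged to both words. The windows are chr5:90772185-90772434 for Pf4, chr6:87777820-87778069 for Gp9, chr6:129397047-129397296 for Clec1b, chr8:84901732-84901927 for Klf1 and chrX:150547167-150547374 for Alas2.
Pf4: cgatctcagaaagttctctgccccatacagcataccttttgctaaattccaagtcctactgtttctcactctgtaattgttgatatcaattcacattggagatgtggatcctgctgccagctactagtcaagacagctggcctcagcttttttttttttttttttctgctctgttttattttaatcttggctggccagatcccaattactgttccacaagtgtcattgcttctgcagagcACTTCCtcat
Gp9: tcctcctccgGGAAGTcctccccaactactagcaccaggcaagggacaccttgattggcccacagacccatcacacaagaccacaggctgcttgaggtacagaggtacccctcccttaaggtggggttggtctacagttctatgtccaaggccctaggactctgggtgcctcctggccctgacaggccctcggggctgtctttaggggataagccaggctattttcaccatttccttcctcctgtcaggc
Clec1b: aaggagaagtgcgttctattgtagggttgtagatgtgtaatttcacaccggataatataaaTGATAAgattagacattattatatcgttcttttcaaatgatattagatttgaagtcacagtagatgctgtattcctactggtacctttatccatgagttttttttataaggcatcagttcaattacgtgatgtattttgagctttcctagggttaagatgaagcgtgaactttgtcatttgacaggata
Klf1: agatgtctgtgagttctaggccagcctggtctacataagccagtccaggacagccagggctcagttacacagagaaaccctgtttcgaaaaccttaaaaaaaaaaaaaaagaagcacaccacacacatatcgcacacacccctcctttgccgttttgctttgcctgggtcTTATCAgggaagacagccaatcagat
Alas2: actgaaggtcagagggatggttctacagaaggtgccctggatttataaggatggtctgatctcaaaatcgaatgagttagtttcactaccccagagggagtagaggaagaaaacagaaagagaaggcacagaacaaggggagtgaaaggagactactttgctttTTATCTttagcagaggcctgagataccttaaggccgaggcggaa

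Pf4 lies at chr5:90772435-90773383 and Ppbp, another chemokine gene, beside it at chr5:90768518-90770063, while Klf1 lies at chr8:84901928-84905291 (GENCODE M21, GRCm38, all + strand). Klf1 and Alas2 each held 1 GATA word, 80 and 86 bases before the RefSeq start, and no ETS word. Pf4 and Gp9 each held 1 ETS word, 10 and 240 bases before it, and no GATA word. Clec1b held 1 GATA word, at 189 bases. Over the 250 bases before the start, a GATA word was found in 11 of 22 matched genes of the erythroid membrane, heme and iron lists (50%), in 7 of 19 megakaryocyte genes (36.8%) and in 29.7% of all 27025 genes of the table. The ETS word was found in 4 of the 22 (18.2%), 7 of the 19 (36.8%) and 22.2%. A gene was counted when any of its matched promoters held the word. The 22 erythroid genes had 30 promoters and the 19 megakaryocyte genes had 19, so the erythroid genes had more windows in which to hold a word. A matching word is a description of the letters and not a site.

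Values just inside and outside the rule describe where it cut. There were 28 cells with 9 to under 10% globin, which met it, and 18 with 10 to under 11% that met it otherwise. A sum of 3 UMIs of Runx1, Fermt3 and Adgrg1 was held by 19 of the cells, and 25 cells with a sum of 2 failed on that count alone. Exactly 1 Gata1 UMI was held by 38 of the cells, and 84 cells failed only because Gata1 was at 0. Another 213 cells met both UMI limits and held 10% globin or more. Among the rule genes at E8.0, Fermt3 was detected in 273 of the 286 cells, Adgrg1 in 237 and Runx1 in 235.

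The share of cells meeting the rule fell from E8.0 to E9.5 within run 1, the sequencing run that held 6 E8.0 and 5 E9.5 samples (log2 odds -3.40, exact permutation test, two-sided p = 0.015). With each cell thinned to 10000 UMIs the difference was -2.21 (exact p = 0.08), and with 5000 UMIs -1.14 (exact p = 0.275), so the test did not pass at equal depth. Thinning also changed which cells met the rule. Over all runs, 286 cells of E8.0 became 111 and 37, and 46 of E9.5 became 34 and 28. Before thinning, the median sum of Runx1, Fermt3 and Adgrg1 was 8 UMIs at E8.0 and 31.5 at E9.5. The part of depth and of the 3-UMI limit was not tested. The test also did not pass for cells under 5% globin (-1.87, exact p = 0.185) or without Bar24, Bar26 or Bar29 (exact p = 0.05 each). Between genotypes, the mean share at E8.0 was 14.8 ± 8.92% in controls (SD, n = 3) and 5.38 ± 5.03% in mutants (SD, n = 3), an exact p of 0.2 where 3 against 3 allows no less than 0.1. At E9.5 it was 0.253 ± 0.276% in controls (SD, n = 5) and 0.562 ± 0.653% in mutants (SD, n = 6), with an exact p of 0.225. Over all stages, permuting genotype within stage and run gave a log2 odds difference of -0.30 (exact p = 0.69). The genotype differences at the 2 stages had opposite signs, and their difference was 3.16 (exact p = 0.0433), which was lost without any 1 of 11 samples. Of the 11 E9.5 samples 5 held 0 such cells, and their log odds are set by their number of cells and the 0.5 added to each count. In run 1 alone, where every sample held some, the difference was 3.92 (exact p = 0.015), an alternative added after seeing the data. Within a stage a difference between genotypes in the share was not detected, and the spread between samples of 1 genotype was wide.

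Gene levels were compared over samples. The UMIs of the cells meeting the rule were summed per sample and are given as CPM, the UMIs of a gene scaled to a common total per sample. Samples with at least 10 such cells entered the tests: 5 at E8.0, Bar3 at E8.5, and the mutants Bar19 and Bar21 at E9.5. In summed cells, fewer cells of a kind and less RNA per cell cannot be told apart.

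Among cells meeting the rule, genes of the red cell membrane and of heme synthesis fell from E8.0 to E9.5, and so did Klf1. The 10% globin limit left out 168 cells of E8.0 and 1284 of E9.5, of which 99.4% and 93.7% held a Klf1 UMI. Most E9.5 cells with Klf1 were thus outside the comparison. The values for red cell genes are therefore a description of the selected cells and not of red cells at E9.5. Klf1 stood at 226, 263 and 195 CPM in the E8.0 controls Bar24, Bar26 and Bar29, at 200 and 199 CPM in the E8.0 mutants Bar25 and Bar27, and at 0 and 23.3 CPM in the E9.5 mutants Bar19 and Bar21 (log2 fold change -4.11, SE 0.46, adjusted p = 3.8e-05, edgeR's quasi-likelihood test with Benjamini-Hochberg adjustment, which also gives the adjusted p-values that follow). Every E8.0 sample was above both E9.5 samples. Across all genes tested the same comparison called 29.4% (13% higher and 16.4% lower of 10521). With DESeq2's size factors 1556 genes were higher and 1360 lower in place of 1371 and 1726, and the median of all genes moved from -0.08 to 0.06. Of the erythroid membrane list, 10 of 13 tested genes fell and 0 rose (median -3.29, all genes -0.08), and of the heme and iron list 15 of 17 fell (median -1.97). The erythroid factors, the list that holds Klf1, did not move together: 4 of 10 fell, 2 rose and the median was -0.02. Summed, that list stood at 1336 to 1490 CPM in the E8.0 samples and 1106 to 1414 CPM in the later ones.

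Alad, which makes porphobilinogen in heme synthesis, was at 950.2, 951 and 652 CPM in those E8.0 controls and 1057 and 1024 CPM in those mutants and at 61.6 and 144 CPM at E9.5 (log2 fold change -3.49, SE 0.28, adjusted p = 3.3e-06). Cpox, a later enzyme of the same pathway, was at 553, 638 and 552 CPM and 615 and 636 CPM at E8.0 and 61.6 and 97 CPM at E9.5 (log2 fold change -3.15, SE 0.20, adjusted p = 6.9e-07). Neither enzyme overlapped between the stages. Slc25a37, the mitochondrial iron importer mitoferrin, fell by 4.63 on the log2 scale. Slc4a1, the red cell anion exchanger, averaged 75 ± 47.4 CPM (SD, n = 5) at E8.0 and had 0 UMIs in the E9.5 mutants Bar19 and Bar21. That is at least 10.1-fold lower with a floor of 3 counts over the group. Its call was lost without Bar19 or Bar21, which leaves 1 E9.5 sample. It was also lost without called doublets, under 5% globin and at 5 UMIs of the 3 summed rule genes. In each of these settings Bar21 fell under 10 cells, so Bar19 was the 1 E9.5 sample. These losses cannot be told apart from the loss of Bar21. In the E9.5 controls Bar22, Bar23 and Bar9 Slc4a1 was at 10.3, 7.61 and 8.3 CPM, and within controls its log2 fold change was -2.67 (adjusted p = 0.114).

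Megakaryocyte genes were higher at E9.5, with 23 of 23 called (median 5.81). Only 7 of the 23 passed the filter on low counts among the E8.0 samples alone. The others were tested through the later samples where they are high, so their count, fold changes and adjusted p-values are a description. Pf4 was at 4.94, 19.9 and 5.35 CPM in the E8.0 controls, 5.32 and 12.7 CPM in the E8.0 mutants and 37440 and 18919 CPM at E9.5 (log2 fold change 11.51, SE 0.64, adjusted p = 6.4e-07). In the other E8.0 cells it averaged 3.34 ± 0.571 CPM (SD, n = 6). Clec1b, the podoplanin receptor of platelets, was at 0.329, 0.813 and 2.01 CPM, 0.664 and 0 CPM and 1556 and 792 CPM in the same order (log2 fold change 11.08, SE 0.60, adjusted p = 6.4e-07). Gp9, a subunit of the von Willebrand factor receptor, was at 2.31, 6.1 and 2.01 CPM, 2.66 and 7.23 CPM and 786 and 501 CPM (log2 fold change 6.89, SE 0.42, adjusted p = 6.5e-07). These genes separated the stages completely.

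Itga2b, the integrin subunit CD41, had a higher level at E8.0 and a smaller fold change. It stood at 52.7, 49.6 and 53.5 CPM in the E8.0 controls, 59.1 and 47 CPM in the E8.0 mutants and 950.1 and 636 CPM at E9.5 (log2 fold change 3.70, SE 0.24, adjusted p = 7.6e-07), and 198 of the 286 E8.0 cells held a UMI of it against 6.00% of other cells. Gp9 had a UMI in 30 of the 286 (10.5%, against 0.255% of other cells) and Pf4 in 44 (15.4%, against 7.90%). In the E8.0 cells with 10% or more globin, 49.4% held a UMI of Itga2b, 16.1% of Gp9 and 11.3% of Pf4. Detection of these genes at E8.0 was thus not particular to the cells meeting the rule. Ppbp, a platelet chemokine, had 0 UMIs at E8.0 and was at 221 and 329.9 CPM at E9.5, at least 906-fold higher. Npy, a neuropeptide also found in mouse megakaryocytes, was at least 637-fold higher by the same floor, a call that DESeq2 did not make (adjusted p = 0.0952).

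**Figure D3:**
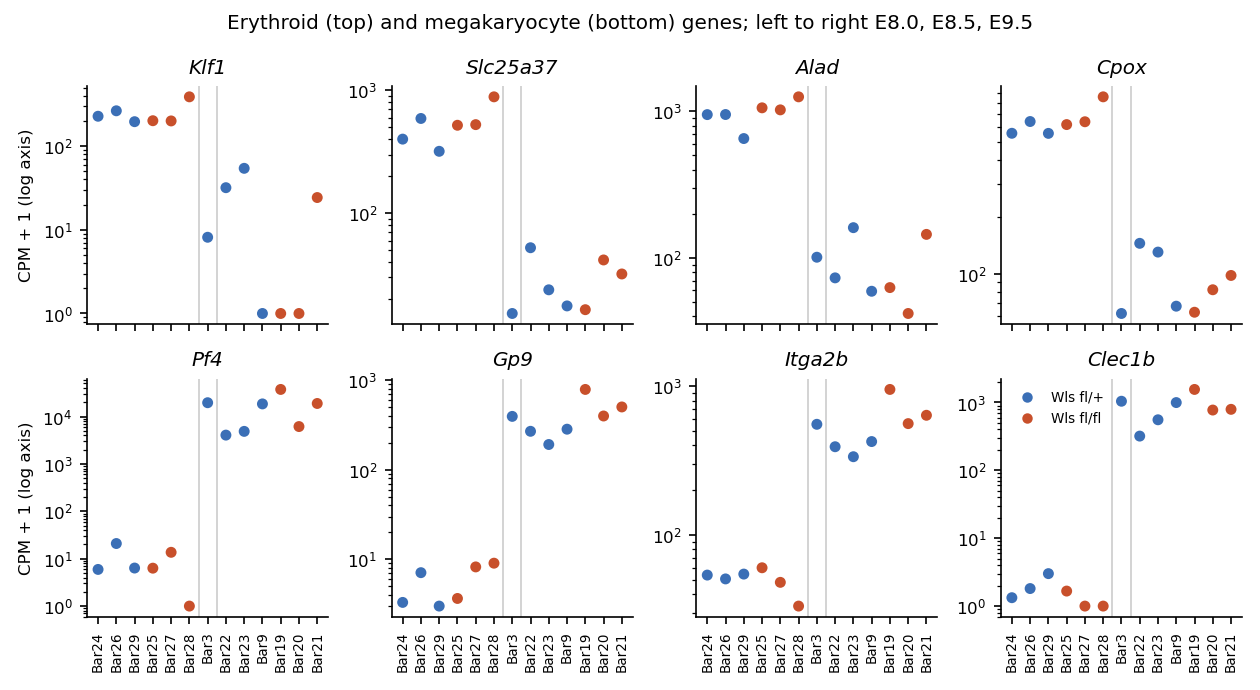
CPM plus 1 (vertical log axis) of 4 red cell genes (Klf1, Slc25a37, Alad, Cpox) and 4 megakaryocyte genes (Pf4, Gp9, Itga2b, Clec1b) in the cells meeting the rule, for each of 13 samples (horizontal axis) by stage and genotype. Red cell genes are high in the E8.0 samples and megakaryocyte genes in the E8.5 and E9.5 samples, with Pf4 between 0 and 19.9 CPM at E8.0.

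The transcription factors moved unequally. Gata1, which the rule required, was at 163, 151 and 147 CPM in the E8.0 controls, 136 and 136 CPM in the E8.0 mutants and 200.3 and 217 CPM at E9.5. Fli1, an ETS factor of megakaryocytes, rose from 19.7 ± 7.22 CPM (SD, n = 5) to 287 ± 109.7 CPM (SD, n = 2; log2 fold change 3.63, SE 0.40, adjusted p = 3.6e-05). Gfi1b rose by 0.89 on the log2 scale and Meis1 by 3.05. The call of Gfi1b was lost without Bar19, Bar21 or Bar25 (without Bar25 adjusted p = 0.142), without called doublets and under 5% globin. Myb fell by 2.46, Ikzf1 by 2.52 and Lmo2 by 1.10. Under 5% globin the calls of Meis1 and Ikzf1 were lost as well. The call of Myb was lost without Bar19, Bar21 or Bar27 (without Bar27 adjusted p = 0.0539) and with DESeq2 (adjusted p = 0.105). It was also lost without called doublets, under 5% globin and at 5 UMIs of the 3 summed rule genes. Within controls the log2 fold change of Myb was -0.01. As for Slc4a1, the fits without called doublets, under 5% globin and at 5 UMIs held Bar19 as the 1 E9.5 sample. Of the stem and progenitor list 6 of 16 tested genes rose and 5 fell.

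Genes of growth and DNA replication were lower in the E9.5 mutants Bar19 and Bar21 than at E8.0. All 10 genes of the ribosome and growth list fell (median -1.97), among them Ncl, nucleolin, from 4367 ± 245 CPM (SD, n = 5) to 1187 ± 451 CPM (SD, n = 2). Of 19 S phase genes 18 fell (median -1.33), and of 18 G2/M genes 6 fell (median -0.70). Cdkn2d, a cyclin-dependent kinase inhibitor, rose (log2 fold change 3.48, SE 0.23, adjusted p = 1.1e-06). Of 11 Wnt pathway genes tested 2 fell, Myc and Znrf3, a share near the 16.4% of all genes called lower; the call of Myc was lost without Bar19 (adjusted p = 0.0654) or Bar25 (adjusted p = 0.0653). Of the low oxygen list 13 of 25 were higher in these mutant samples (median 1.25), with Slc2a3, a glucose transporter, up by 3.62 on the log2 scale. Within controls the list did not rise as a set, as given below.

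Some genes of other lineages also rose, namely 7 of the 10 tested of 20 on the myeloid list and 7 of the 13 tested of 20 on the endothelial list. Among the E8.0 samples alone 4 and 6 genes of these lists passed the filter on low counts, so most were tested through the later samples, and these counts are a description. Summed over the myeloid list, the level was 8 to 92 CPM in the E8.0 samples and 228 to 1471 CPM in the later ones; Coro1a and Fcer1g, which platelets also express, rose by 9.39 and 6.77 on the log2 scale. The stress list, of immediate early and heat shock genes, moved with the stage as well: 6 of 8 tested rose (median 2.32), and its sum was 137 to 250.3 CPM at E8.0 and 782 to 1760.2 CPM later. Of lists for other cells of the embryo, the endoderm and yolk sac genes summed to 0 to 24.9 CPM and the neural genes to 0 to 33.2 CPM over all 13 samples, while the cardiomyocyte genes summed to 116 to 169 CPM at E8.0 and 319 to 745 CPM later. Of 8 mesenchyme genes tested 2 rose, and their list summed to 32.2 to 64.9 CPM at E8.0 and 20.3 to 276 CPM later, highest in Bar21. The part of stress and of these cell types in the result was not tested. Both E9.5 samples were mutant, so the stage was also compared within genotype among samples with at least 4 of these cells, an alternative added after seeing the data. In controls 16.1% of 5971 genes were called higher and 13.4% lower, and 22 of 22 megakaryocyte genes rose and 14 of 17 heme and iron genes fell. In mutants 25.3% of 3697 genes were called higher and 20% lower, and the counts were 21 of 21 and 13 of 15. As in the main comparison, megakaryocyte genes that are low at E8.0 were tested through the later samples, and the rule's globin limit bears on the heme genes. These counts are therefore a description. Of the ribosome and growth list 9 of 10 genes fell in controls (median -1.06) and 10 of 10 in mutants (median -1.55). Of the S phase genes tested 7 of 19 fell in controls (median -0.52) and 13 of 16 in mutants (median -0.82), and the difference between genotypes was not tested. The S phase list summed to 2679, 3156 and 1860 CPM in the E9.5 controls Bar22, Bar23 and Bar9, against 3543 to 3809 CPM at E8.0. Of 18 G2/M genes 1 rose and 0 fell in controls, and 0 rose and 2 fell in mutants. The low oxygen list did not rise as a set in controls, with 2 of 16 genes higher and 4 lower, beside 16.1% and 13.4% of all genes. In mutants 3 of 9 were higher, beside 25.3% of all genes.

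At E8.5 the 13 cells of Bar3, a control of another sequencing run, had high levels of megakaryocyte genes and low levels of heme genes. Pf4 was at 19638 CPM and Klf1 at 7.14 CPM. With 1 sample at E8.5, the fit takes the spread from the other groups and assumes that Bar3 varies as they do, and stage and run cannot be told apart. Under that assumption, and against the same 5 E8.0 samples that the E9.5 comparison uses, 18.9% of genes were called (9.81% higher and 9.08% lower). These calls describe Bar3 and not the stage. Of the lists, 23 of 23 megakaryocyte genes had positive fold changes (median 6.59), and 1 of 17 heme and iron genes did (median -2.14). Most of these megakaryocyte genes again passed the filter on low counts through the later samples, so their count is a description. Other lists differed in their values from those of the E9.5 mutants Bar19 and Bar21. Of 18 G2/M genes 13 had positive fold changes in Bar3 (median 0.37) and 0 at E9.5 (6 called lower, median -0.70). Of 25 low oxygen genes 9 had positive fold changes in Bar3 (median -0.43) and 24 at E9.5 (13 called higher and 0 lower, median 1.25). As Bar3 was a control, stage, genotype and run cannot be told apart in these differences. The fit of E9.5 against E8.5 set 2 mutant samples of run 1 against this 1 control of run 2 and called 0.143% of genes (15 of 10521; 0.114% higher and 0.0285% lower), a count of 0 without Bar25 and 98 without Bar21, which shows neither likeness nor difference of the stages.

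The E8.0 cells were also ordered by their globin share, as a description, since the rule used globin. From under 2.5% (70 cells) through 2.5 to 5% (66) and 5 to 7.5% (91) to 7.5 to 10% globin (59, of which 4 in Bar28 were not averaged), Slc4a1 averaged 9.94, 29.9, 68.4 and 173 CPM over 5 samples and Klf1 136, 224, 229.8 and 285 CPM over the same bins. Of 7162 genes, 3.84% were higher in the top bin than the bottom in all 5 samples and 19.1% were lower. Of the erythroid membrane list 10 of 13 were higher in all 5, of the heme and iron list 13 of 17, and 7 of 7 megakaryocyte genes were lower. Only genes with a mean of at least 10 CPM over the 4 bins were counted, which 7 of the 23 megakaryocyte genes reached. A gene can reach that mean through the lowest bin alone, so this count is a description.

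The cells with least globin carried a different set of genes. Apoe, an apolipoprotein, averaged 371, 23.1, 13.8 and 4.58 CPM from the lowest to the highest bin, and Rab27b, a GTPase of granule transport, 119.9, 11.6, 2.77 and 3.33 CPM. Plek, the platelet kinase substrate pleckstrin, averaged 102, 1.14, 0.346 and 0.662 CPM, and Myb 57.9, 16.3, 18.1 and 5.25 CPM. Pf4 had a UMI in 23 of the 70 cells of the lowest bin and in 5 of 66, 11 of 91 and 5 of 59 cells of the others. Klf1 was still present in 55 of those 70 cells. Kit went 17.9, 18.2, 7.81 and 8.9 CPM, with no common direction over samples. Of the stem and progenitor list, 12 of 24 genes reached a mean of 10 CPM over the bins. From the lowest to the highest bin 7 of these 12 were lower in all 5 samples and 1 was higher, against 19.1% and 3.84% of all genes. Their median log2 difference was -1.31, against -0.22 for all genes. Gata2 had a UMI in 19 of 70, 7 of 66, 7 of 91 and 5 of 59 cells.

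**Figure D4:**
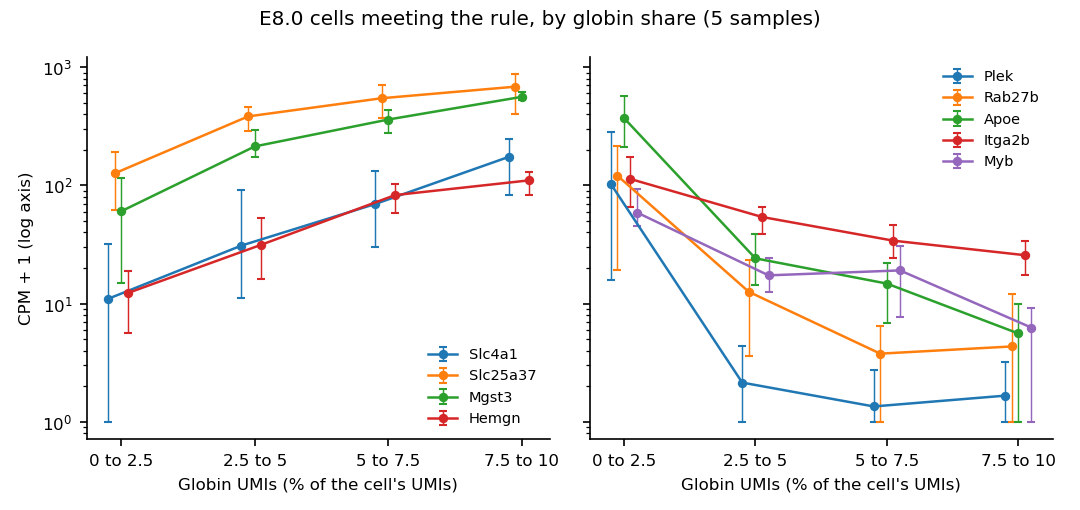
Mean CPM plus 1 over 5 E8.0 samples (vertical log axis) in 4 bins of globin share (percent of UMIs, horizontal axis), with bars from the lowest to the highest sample, for 4 genes that were higher with more globin and 5 that were lower. Slc4a1 goes from 9.94 to 173 CPM and Apoe from 371 to 4.58 CPM.

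Between genotypes few genes differed. With all stages in the fit 1 gene of 10521 was called (0.0095%, Xist, which was lower, a call for 0.0095% of genes in that direction), and 0 with the level of Y-linked genes as a covariate; 325 had an unadjusted p under 0.05. Of the samples with at least 10 cells, the E8.5 one was control and the E9.5 ones mutant, so this genotype term rests on the 5 E8.0 samples and is no comparison over stages. Wls, the floxed gene, was at 11.5, 13 and 8.7 CPM in the E8.0 controls and 1.33 and 0.904 CPM in the mutants (log2 fold change -3.23, SE 0.56, adjusted p = 0.169), lower in both mutants than in each control though it did not pass the test. At E8.0 0.0472% of genes were called (4 of 8472; 0.0118% higher and 0.0354% lower, with 368 at an unadjusted p under 0.05), and none of the 13 erythroid membrane, 17 heme and iron or 7 megakaryocyte genes tested was among them. Rpl34, a ribosomal protein gene at chr3:130726831-130730398 (- strand), was at 1408, 1356 and 1403 CPM in controls and 659 and 608 CPM in mutants (log2 fold change -1.12, SE 0.08, adjusted p = 2.3e-04). Rpl34-ps1, a processed pseudogene of that gene at chr6:71124610-71124963 (+ strand), rose in mutants, at 139.6, 132 and 129 CPM and 259.8 and 271 CPM (log2 fold change 0.99, SE 0.11, adjusted p = 0.00397), a call lost without Bar25 (adjusted p = 0.0741) or Bar27 (adjusted p = 0.0978). A gene and its processed copy can share reads, so how the counting split them is uncertain. At E9.5 Rpl34 was at 1368, 677 and 1229 CPM in the controls Bar22, Bar23 and Bar9 and 1269, 651 and 633 CPM in the mutants Bar19, Bar20 and Bar21, and the groups overlapped.

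Mt1 (chr8:94179082-94180327, + strand), a metallothionein that binds zinc and copper, was at 124, 156 and 133 CPM in E8.0 controls and 69.8 and 59.6 CPM in mutants (log2 fold change -1.07, SE 0.15, adjusted p = 0.0378). The call was lost without Bar25 (adjusted p = 0.187), Bar27 (adjusted p = 0.336) or Bar29 (adjusted p = 0.062). It was also lost without called doublets, under 5% globin, at 5 UMIs of the 3 summed rule genes, and with at least 4 cells per sample, which adds the mutant Bar28 at 121 CPM (log2 fold change -0.97, adjusted p = 0.0779). The fourth gene was Xist, and genotype and embryo sex cannot be told apart in these 5 samples.

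At E9.5 the genotypes were compared over 3 control and 3 mutant samples with at least 4 of these cells each. That minimum was lowered after seeing the data. Sequencing run was a term of the fit, and the control Bar9 was the only sample of run 3, while the others were in run 1. The run term takes up Bar9, so the genotype estimates set the 3 mutants against the controls Bar22 and Bar23 alone. Ppbp was at 0, 0 and 16.6 CPM in the controls Bar22, Bar23 and Bar9 and 221, 102 and 329.9 CPM in the mutants Bar19, Bar20 and Bar21. The groups did not overlap, with 138 UMIs in mutants against 2 in controls (ratio 55.9, counting interval 15.2 to 466). This ratio includes Bar9, which held both control UMIs. The edgeR fit, whose genotype estimate does not draw on Bar9, gave an adjusted p of 0.0478. With 2 UMIs in controls, Ppbp passed the filter on low counts through the mutants, where it is high, so its call is a description. It was the 1 gene called of 4235 (0.0236%). An unadjusted p under 0.05 was held by 481 genes, and DESeq2 called 2. The call of Ppbp was lost without any 1 of the controls Bar22, Bar23 and Bar9 (without Bar9 edgeR adjusted p = 0.147). Leaving out Bar22 or Bar23 left 1 control behind the estimate. The call was also lost without called doublets, where Bar23 fell under 4 cells and dropped out, and under 5% globin (adjusted p = 0.0824). The other megakaryocyte genes had positive fold changes in 22 of 22 cases and a list median of 1.04, Pf4 among them (log2 fold change 2.33, SE 0.55, adjusted p = 0.337), and none of these passed the test. Summed, the megakaryocyte list stood at 13290, 12123 and 29723 CPM in the controls Bar22, Bar23 and Bar9. In the mutants Bar19, Bar20 and Bar21 it stood at 56499, 19465 and 30698 CPM, so the genotypes overlapped. Fold changes were positive for 18 of 19 low oxygen genes tested (median 1.29), for 0 of 13 S phase genes (median -0.60) and for 0 of 8 ribosome and growth genes (median -0.94). The median of all genes was 0.0038, and 0 of these passed. The S phase list summed to 2679, 3156 and 1860 CPM in those controls and 1371, 2329 and 1750 CPM in those mutants, so the genotypes overlapped. Cells with at least 10 Pf4 UMIs were 5 of 7, 3 of 4 and 8 of 9 in those controls and 11 of 11, 4 of 5 and 7 of 10 in those mutants, so the makeup of the summed cells differed between samples as well. Its part in the result was not tested.

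**Figure D5:**
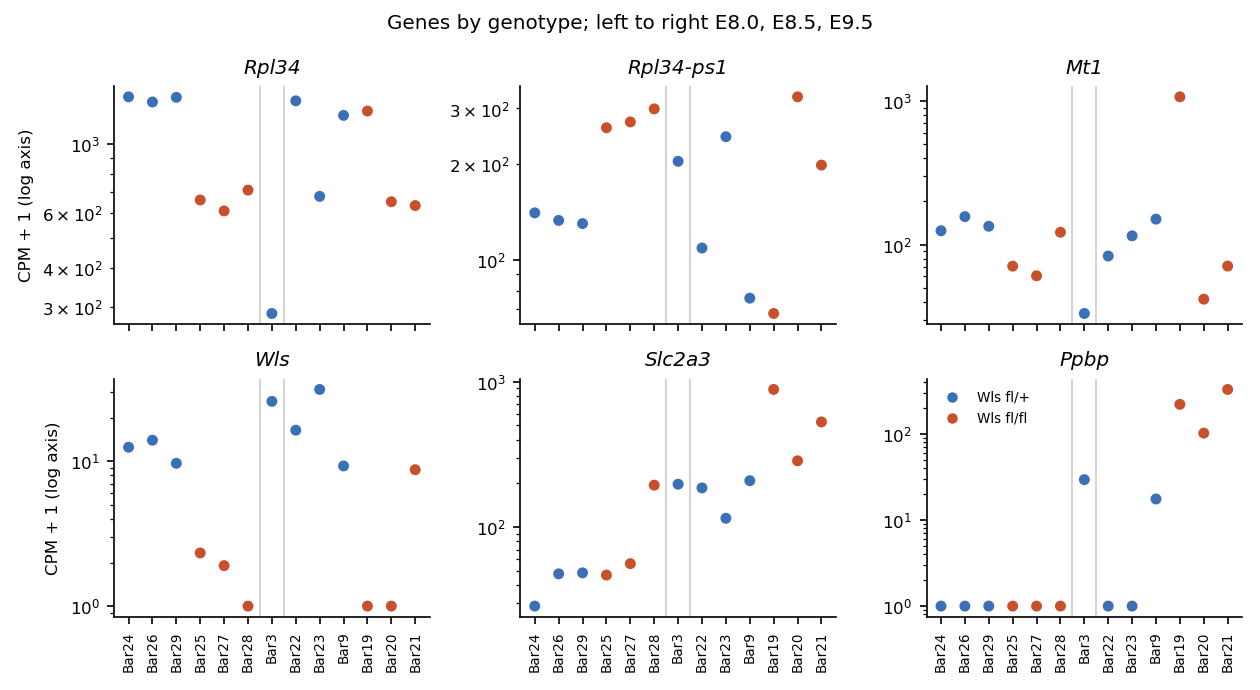
CPM plus 1 (vertical log axis) of Rpl34, Rpl34-ps1, Mt1, Wls, Slc2a3 and Ppbp in the cells meeting the rule, for each of 13 samples (horizontal axis) by stage and genotype. Rpl34 separates the genotypes at E8.0 and not at E9.5, and Ppbp is at 0 in every E8.0 sample.

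The cells were last set beside cells with 10% or more globin, as a description with no test. At E8.0, in the 2 samples with enough of both, Mef2c, a transcription factor gene, averaged 65.5 against 5.37 CPM and Rasgrp2, an exchange factor of platelet integrin signalling, 91.3 against 11.5 CPM. Hemgn, a nuclear protein of red cell precursors, averaged 81.1 against 225 CPM. In the later samples Tmsb4x, which encodes the actin-binding thymosin, averaged 30868 against 108 CPM. Across the series, 51 of the 58 cells with at least 10 Pf4 UMIs met the rule, and the other 7 all had Gata1 at 0.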

How the data were processed

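Single cells from 22 MULTI-seq barcode samples were measured by 10x Chromium v3. The authors deposited UMI counts per gene and cell for 3 runs with a table of each cell's barcode sample; kallisto, bustools 0.46.1, Cell Ranger and GRCm38 are named per the submitters' processing notes, with no roles given. The cells and gene lists described here were chosen with earlier results of these data known.

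From the counts, cells meeting the rule were found, and their UMIs were summed per barcode sample. Samples with at least 10 such cells were tested with edgeR 4.0.16 (filterByExpr, TMM, quasi-likelihood F-test, Benjamini-Hochberg adjusted p under 0.05) in R 4.3.3; a sample, not a cell, was the replicate. Labels do not say that samples were separate embryos, so p-values measure the spread between these samples, which may be technical. No genotype comparison could be fitted at E9.5 with 10 cells per sample, so 4 was used there, after seeing the data. Shares were compared as log2 odds (0.5 added to each count) by exact permutation within stage and run, over samples with at least 50 cells (scipy 1.17.1). Doublets were called with Scrublet in scanpy 1.11.5 (80 cells, 0.541%) and kept. The UMIs of these cells summed to 1106700 to 3036220 per E8.0 sample tested and to 194712 to 280119 per later one, so low genes are less precise later; binomial intervals and floors (3 counts) cover counting error only.

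Genes named from each comparison were the 8 with the largest rise and the 8 with the largest fall among those past the threshold with a mean of at least 20 CPM in 1 group, of which examples are given, and genes of the lists. The edgeR comparisons of genotype at E8.0 and of E9.5 against E8.0 were also run on simulated counts, with the outcome not given here. Alternatives were DESeq2 1.42.0, its size factors, no low-count filter, other rule limits, no doublets, and each sample left out. Gene positions are from GENCODE M21, which held 51846 of the 51923 genes; promoters were matched for 19 of 23 megakaryocyte and 22 of 31 erythroid genes. Results for 1 gene are not reported here.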

Additional observations from a re-analysis of the deposited data

Results flagged for a closer look

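The difference in the share of cells meeting the rule between mutants and controls had opposite signs at the 2 main stages, lower in mutants at E8.0 (log2 odds -2.08, 3 mutant and 3 control samples) and higher at E9.5 (1.08, 6 mutant and 5 control samples). The difference between these differences was 3.16 (exact permutation of genotype within stage and run, two-sided p = 0.0433), a comparison added after seeing the data. Of the 11 E9.5 samples 5 held 0 such cells, so their log odds are set by their number of cells and the 0.5 added to each count. In run 1 alone, where every sample held some, the difference at E9.5 was 1.84 (3 mutant and 2 control samples, exact p = 0.1, the smallest they allow) and the difference between the stages 3.92 (exact p = 0.015), an alternative added after seeing the data. Among blood cells alone it was 3.70 (exact p = 0.283). The cells counted were mostly erythroid in type at E8.0 and megakaryocyte in type at E9.5, so the shares are not of 1 kind of cell. The test no longer passed without any 1 of Bar4, Bar5, Bar19, Bar21, Bar22, Bar23, Bar24, Bar26, Bar27, Bar28 or Bar29 (exact p from 0.0542 to 0.122).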

How the results depend on the processing

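Of the shares, the genotype difference over all cells ranged from -0.74 to 0.12 when 1 sample was left out (0.12 without Bar28, a reversal), and among blood cells from -1.65 to -0.31. The difference between stages in the genotype effect was 2.79 (exact p = 0.0667) at 2 UMIs of the 3 summed rule genes and 9.62 percentage points (exact p = 0.12), 3.86 (exact p = 0.00333) and 3.96 (exact p = 0.00833) after thinning to 10000 and 5000 UMIs, and 2.07 to 4.03 with 1 sample left out. The E9.5 against E8.0 share was -2.21 and -1.14 after thinning to 10000 and 5000 UMIs and -1.87 under 5% globin, and -4.16 to -2.86 with 1 sample left out. Genes called by genotype with all stages in the fit, a term that rests on the E8.0 samples unless 4 cells are allowed, were 58 with no filter, 4 with 20 cells or without E9.5, 3 without doublets or at 5 UMIs, 2 under 5% globin or with 4 cells, 0 with the Y-linked covariate and 0 to 6 with 1 sample left out. At E8.0 they were 87 with no filter, 10 with globin as a covariate and 4 to 13 with 1 sample left out. At E9.5 they were 84 with no filter, 2 by DESeq2 or at 5 UMIs, 0 under 5% globin or in run 1 only, and 0 to 18 with 1 sample left out. Genes called between E9.5 and E8.0 numbered 1793 under 5% globin, 1764 in controls and 1675 in mutants (4 cells), and 2076 to 2976 with 1 sample left out; between E8.5 and E8.0, 1685 to 2357. Between E9.5 and E8.5 they numbered 98 by DESeq2, 177 with no filter, 1 with 4 cells, 3 with 4 cells in controls and 0 to 98 with 1 sample left out. No gene followed through these alternatives reversed, and Lmo2, Znrf3 and Xist were not followed. The cause of these changes was not tested. Run as a term, runs 2 and 3 alone, E9.5 genotype at 10 or 20 cells, and stage in controls at 10 cells (E9.5) could not be fitted. No paired analysis was possible because the barcode numbers of the samples are not shared between groups.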

Other observations

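Of the 59 cells at E8.5 and E9.5, 9 held under 10 Pf4 UMIs. They meet the rule, and their UMIs are part of the summed samples. They came from Bar21 (3), Bar22 (2) and Bar3, Bar9, Bar20 and Bar23 (1 each), and 2 of them were called doublets. A Bar21 cell held 134 UMIs of the myeloid list, among them 35 of Tyrobp, a signalling adaptor of myeloid and killer cells, and 9 of Spi1, the myeloid factor PU.1. A Bar22 cell held 51 UMIs of that list, 8 of them of Mpo, the granule myeloperoxidase. The 3 Bar21 cells held 23058, 33095 and 35168 of the 257675 UMIs summed for that sample, and the one called a doublet held 5 of its 6 Klf1 UMIs. The Bar20 cell held 4 Pf4 UMIs beside 438 UMIs of the megakaryocyte list.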
